A study of Homo sapiens with 32 samples.

Results

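The 36 genes described here act in meiosis or in germ cells. They were named individually, by no threshold on their values but with earlier results of these data known, and are 36 of 19974 protein-coding genes on chromosomes 1 to 22 and X of the RefSeq annotation of GRCh38. By role, 15 serve meiosis itself and 8 act in the oocyte. The other 13 form a group named for the PIWI-interacting RNA (piRNA) pathway and germ granules, which also holds the RNA-binding genes DAZL and BOLL. For each gene, the span and 2.5 kb on each side formed a window, and the value given is the percent of that window covered by islands of H3K27me3.

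H3K27me3, the trimethylation of lysine 27 on histone H3, is laid down by Polycomb repressive complex 2, whose catalytic subunit is EZH2, and marks silent chromatin. Meiotic and germline genes are off in somatic cells. DNA methylation of CpG-rich starts and the Polycomb-related complex PRC1.6, which binds DNA through E2F6 and the MGA-MAX pair, are known to hold many of them silent. Some are switched on in tumours, which gave rise to the name cancer-testis genes.

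The samples came from MDA-MB-231, a widely used line of triple-negative breast cancer. Cells received EPZ, an EZH2 inhibitor whose samples are titled EP7. Others received P38i, an inhibitor of p38 MAP kinase, or Combo, which is EPZ and P38i together. Control cells had no treatment. Exposure lasted 24 h, and each of the 4 groups had 4 H3K27me3 libraries made by ChIPmentation, in which chromatin is tagged by a transposase while bound to the antibody beads. A further 16 libraries made with IgG were not analysed here. Whether the replicates came from separate cultures is not stated, so p-values measure a spread that may be technical. Coverage is a share of length, so fewer cells with the mark and less of the mark per cell cannot be told apart.

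Across the 16 lists, islands covered 474 to 674 Mb with median widths of 3.4 to 7.4 kb, and read depth is unknown. EPZ and Combo libraries covered 474 to 615 Mb and P38i and Control libraries 484 to 674 Mb. Of 15 mesenchymal markers of this cell line, 14 had no island in any library, and MSN stood at 3.59%. All 20 housekeeping genes had none. Of 16 luminal genes, 9 had no island in any library, among them GATA3 and CDH1, and 2 more were below 5%. The other 5 were PGR at 95.4%, FOXA1 at 56.6%, GRHL2 at 47.3%, ESR1 at 10.2% and AGR2 at 7.97%. Of 24 genes for PRC1.6 and Polycomb repressive complex 2 subunits, 23 had no island, and MGA stood at 0.561%.

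The germline genes split into a marked and an unmarked set. In 9 of 36 (25%) no island touched the window in any library, against 68.0% of all protein-coding genes. A further 7 averaged below 5%. In 19 (52.8%) the mean over the 16 libraries lay between 5 and 95%, the range in which genes were tested, against 20.6% of all genes. SPO11, the topoisomerase-like enzyme that makes the DNA breaks of meiosis, was the single member above 95%, with a mean of 96.5% and a range of 87.0 to 100%. SPO11 was therefore outside the main test. Its coverage averaged 91.7% ± 4.30 in EPZ, 98.7% ± 1.48 in P38i, 95.9% ± 1.35 in Combo and 99.9% ± 0.242 in Control (SD, n = 4 each). In a fit with no filter on coverage it was lower with the EZH2 inhibitor by a difference of -5.51 percentage points (limma adjusted p = 0.0162), and in EPZ against Control by -8.18 points (adjusted p = 0.0419). Over all 6346 genes in that fit, 602 were lower and 38 higher with the EZH2 inhibitor, and 106 and 3 in EPZ against Control. SPO11 reached 100% in P38i and Control libraries and its SD differed between groups. The fit assumes a shared spread, which limits these p-values.

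Of the 15 meiotic genes, 7 (46.7%) had no island in any library. No island was found over SYCP3, an axis protein of the synaptonemal complex that zips homologous chromosomes together, or over SYCE3 of its central element. The strand-exchange recombinase DMC1, the axis proteins HORMAD1 and HORMAD2, the meiotic cohesin REC8 and MEI1, needed for meiotic breaks in mice, also had none. Outside meiosis, the PIWI protein gene PIWIL2 and the egg-coat gene ZP3 had none. Those below 5% were MEIOB, a single-strand DNA-binding protein, and PRDM9, the methyltransferase that places recombination hotspots. In the piRNA group they were the helicase DDX4, the RNA-binding protein DAZL and the tudor-domain genes TDRD1 and TDRD6, and in the oocyte group the egg-coat gene ZP1. Among these 7, an island was found in at most 6 of 16 libraries.

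By role, of 15 meiotic genes 5 were tested, of 13 piRNA genes 8, and of 8 oocyte genes 6. Mean coverage over all 8 oocyte genes was 41.2% ± 6.32 in EPZ, 53.6% ± 2.501 in P38i, 49.3% ± 5.71 in Combo and 42.0% ± 11.8 in Control (SD, n = 4 libraries each). Over the 15 meiotic genes it was 22.1% ± 2.94 in EPZ, 27.2% ± 1.86 in P38i, 24.0% ± 1.88 in Combo and 28.4% ± 2.06 in Control. Over the 13 piRNA genes it was 20.9% ± 2.86 in EPZ, 27.6% ± 3.14 in P38i, 21.6% ± 2.52 in Combo and 26.7% ± 3.90 in Control. The meiotic and piRNA means were lower in both groups that held the EZH2 inhibitor than in the other groups, while the oocyte means were highest in the groups that held P38i; these means were not tested. Per library, 9 to 12 members were at least 50% covered in EPZ, 11 to 13 in P38i, 10 to 12 in Combo and 9 to 13 in Control. The matching shares of all genes averaged 9.50%, 12.04%, 10.5% and 11.0%, beside means of 28.5%, 33.3%, 31.3% and 29.9% of the members.

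**Figure D1:**
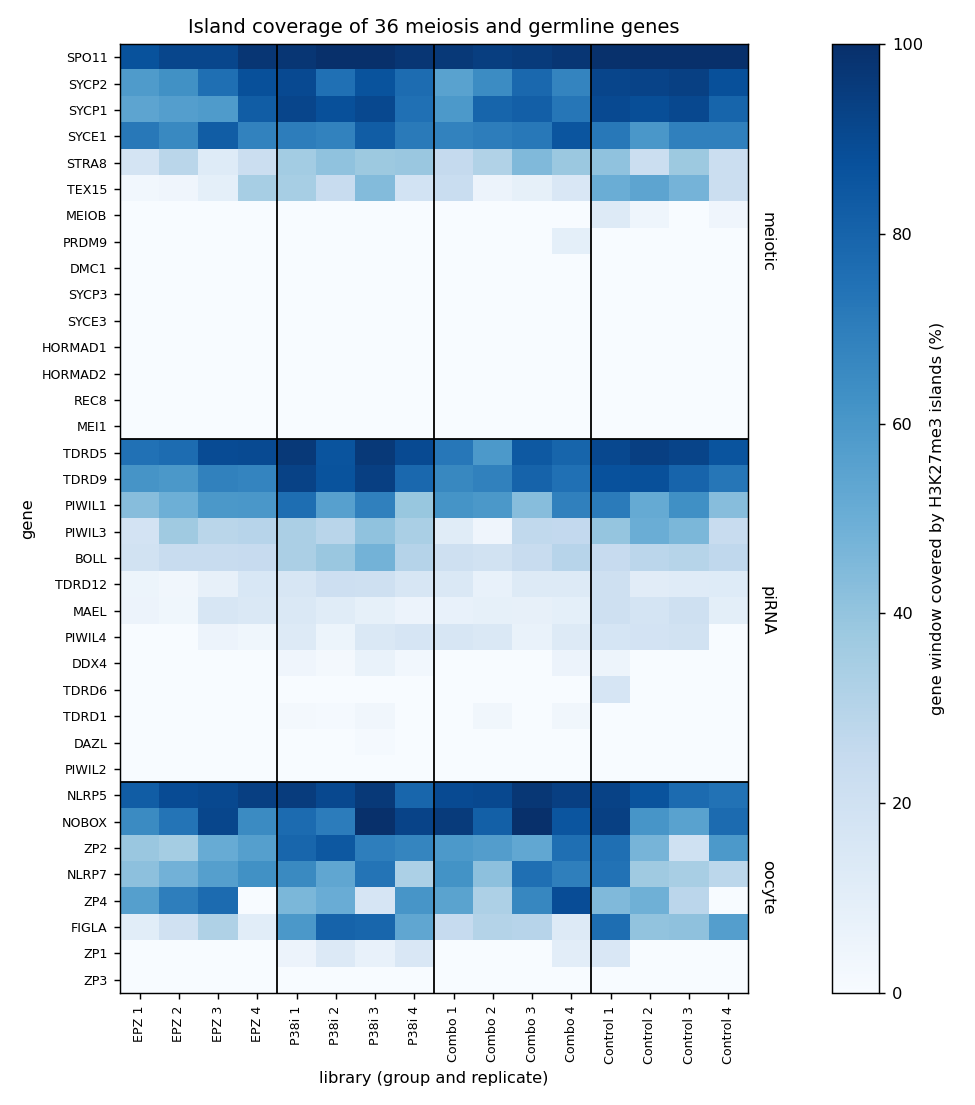
Percent of each gene's window covered by islands (colour, 0 to 100%) for the 36 genes (rows, by role and then by mean coverage) in the 16 libraries (columns, by group and replicate). SPO11 and NLRP5 are dark in every library, 9 genes are blank throughout, and FIGLA is paler in the EPZ and Combo columns (10.9 to 32.4%) than in the P38i and Control columns (40.3 to 80.4%).

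Marked genes differed in whether the mark reached the gene start. RefSeq gave a start and a promoter sequence (250 bases before to 50 after the start, GRCh38.p14) for 28 of the 36 genes, and the 5 kb centred on the start was measured as a window of its own. In 14 tested members with such a start, the median coverage was 24.9% at the start, against 33.6% in 3162 tested genes with a start. NOBOX, a homeobox transcription factor of the oocyte, was covered over 97.9% of its start window, and an island lay across the start itself in 16 of 16 libraries. NLRP5, part of the subcortical maternal complex of the egg, reached 92.7%, with an island across the start in 14 libraries. SPO11 reached 95.001% and SYCP1, the transverse filament of the synaptonemal complex, 75.5%, with the start covered in 13 and 12 libraries.

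Other genes were covered less at the start than over the gene window. SYCP2, an axis protein of the synaptonemal complex, was covered over 77.8% of its gene window and 4.56% of its start window. SYCE1, of the central element, had 71.7% and 6.79%. PIWIL1, a PIWI protein of the male germ line, had 57.1% and 1.00%, and TDRD9, a tudor-domain helicase that works with PIWI proteins, had 76.6% and 15.5%. MAEL and TDRD12, piRNA factors with gene windows at 11.3% and 13.2%, had no island near the start. In SYCP2, SYCE1, PIWIL1 and TDRD9 no library had an island across the start.

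The promoter sequences of 5 members show this contrast, with CpG dinucleotides in capitals, 5′ to 3′ on the strand of the gene. NOBOX and NLRP5 had covered starts, FIGLA and SYCP2 were marked genes with no island across the start, and DAZL had an uncovered gene window beside covered surroundings.
NOBOX (chr7:144410178-144410477, minus strand): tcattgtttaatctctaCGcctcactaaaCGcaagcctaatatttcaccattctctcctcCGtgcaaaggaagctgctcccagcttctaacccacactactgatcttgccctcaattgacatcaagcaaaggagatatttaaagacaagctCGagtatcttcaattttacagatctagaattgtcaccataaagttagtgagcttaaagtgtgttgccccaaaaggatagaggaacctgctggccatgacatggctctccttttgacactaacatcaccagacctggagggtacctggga
NLRP5 (chr19:55986525-55986824, plus strand): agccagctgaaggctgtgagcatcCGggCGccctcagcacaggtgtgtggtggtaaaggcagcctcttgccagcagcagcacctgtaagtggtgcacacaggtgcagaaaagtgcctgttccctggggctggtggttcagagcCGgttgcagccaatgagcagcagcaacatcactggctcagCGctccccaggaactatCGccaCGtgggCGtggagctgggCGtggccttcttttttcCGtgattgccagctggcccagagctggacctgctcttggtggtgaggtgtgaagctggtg
FIGLA (chr2:70790594-70790893, minus strand): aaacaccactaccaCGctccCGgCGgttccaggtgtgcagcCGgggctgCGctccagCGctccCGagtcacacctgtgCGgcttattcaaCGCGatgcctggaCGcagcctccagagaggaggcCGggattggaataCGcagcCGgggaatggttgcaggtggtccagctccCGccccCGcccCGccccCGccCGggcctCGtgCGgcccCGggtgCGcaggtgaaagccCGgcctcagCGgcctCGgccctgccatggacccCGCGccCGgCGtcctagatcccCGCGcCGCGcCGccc
SYCP2 (chr20:59933588-59933887, minus strand): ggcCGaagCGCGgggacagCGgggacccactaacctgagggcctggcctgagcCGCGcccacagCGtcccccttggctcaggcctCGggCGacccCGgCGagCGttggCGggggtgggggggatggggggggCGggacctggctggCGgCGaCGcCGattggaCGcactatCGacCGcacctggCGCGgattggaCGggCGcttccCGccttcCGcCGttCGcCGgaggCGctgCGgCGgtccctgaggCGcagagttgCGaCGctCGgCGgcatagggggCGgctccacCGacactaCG
DAZL (chr3:16605374-16605673, minus strand): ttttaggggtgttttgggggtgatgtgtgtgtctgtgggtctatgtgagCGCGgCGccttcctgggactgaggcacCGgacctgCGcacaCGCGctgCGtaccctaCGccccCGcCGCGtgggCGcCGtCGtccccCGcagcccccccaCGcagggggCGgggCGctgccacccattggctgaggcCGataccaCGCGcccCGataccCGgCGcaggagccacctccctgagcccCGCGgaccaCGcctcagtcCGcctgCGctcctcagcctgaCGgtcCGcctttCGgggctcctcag

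Of the promoters printed above, those of NOBOX and NLRP5, with islands across the start, are poor in CpG. Those of FIGLA, SYCP2 and DAZL, with no island across the start, are rich, although the FIGLA start window was 34.3% covered. The observed over expected CpG ratio was 0.285 for NOBOX and 0.328 for NLRP5, against 0.880 for FIGLA, 0.974 for SYCP2 and 0.862 for DAZL. With members divided at a ratio of 0.6, 9 tested members with a ratio of at least 0.6 had a median start coverage of 6.79% beside a median gene coverage of 57.1%, and in 8 of the 9 the start was less covered than the gene. The 5 members under 0.6 had medians of 54.3% and 80.3%, with the start less covered in 3 of 5. All tested genes leaned the same way: 1337 genes at or above 0.6 had medians of 19.9% at the start and 36.7% over the gene (start lower in 75.5%), and 1825 below it had 47.4% and 48.5% (start lower in 52.8%). SPO11 and SYCP1, with ratios of 0.756 and 0.724, were covered at the start all the same.

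**Figure D2:**
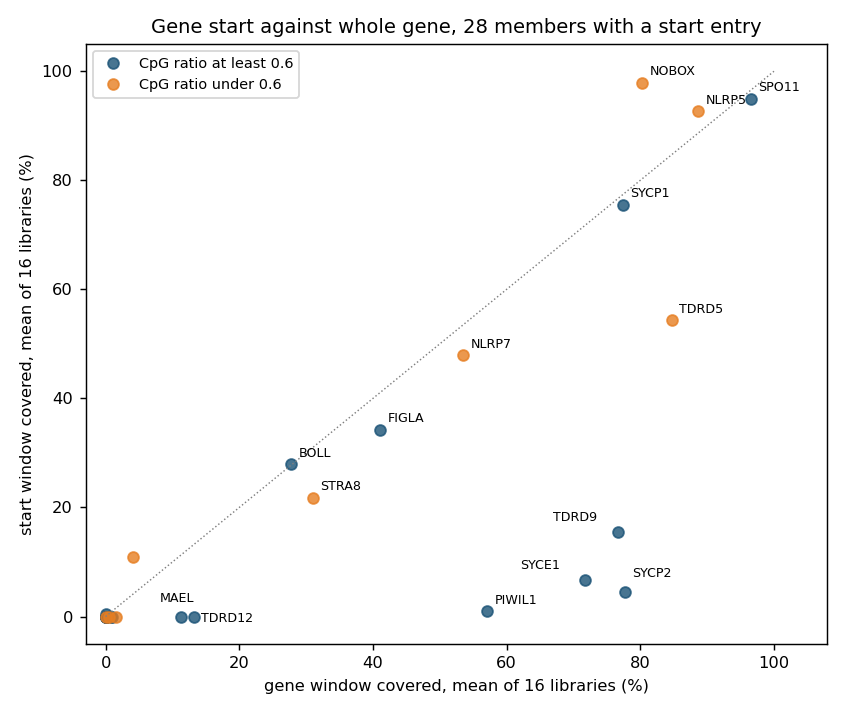
Coverage of the 5 kb around the gene start (vertical, %) against coverage of the gene window (horizontal, %), means of 16 libraries, for 28 genes. Colour marks a CpG ratio of the promoter of at least 0.6 (blue) or under 0.6 (orange), and the dotted line marks equal coverage. SYCP2, SYCE1, PIWIL1 and TDRD9 lie far below the line, and NOBOX and NLRP5 lie above it.

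Binding motifs named for germline silencing were looked for on both strands of these promoters. TCCCGC, the E2F6-type motif, was in 17 of 28 promoters (60.7%), among them 9 of 12 meiotic ones, against 34.9% of 15812 protein-coding promoters. It was in 10 of 14 tested members and 4 of 7 with no island, against 24.9% of all tested genes and 38.6% of all genes with no island. The motif itself holds a CpG, and promoters of tested members had a median GC of 69.5% and CpG ratio of 0.737. Those of all tested genes had 56% and 0.478. For the 28 members the medians were 65.3% and 0.748, against 62.7% and 0.762 in all promoters. Whether composition accounts for the shares was not tested. CACGTG, the E-box that MGA-MAX can bind, was in 4 of 28 (14.3%), against 8.82% of all promoters, and NLRP5 holds a copy, written caCGtg in its sequence above. GCGCGAAA, a longer E2F-type motif, was in 0 of 28 and in 0.810% of all. In 0 of 28 promoters did a CACGTG match share a base with a TCCCGC match. A match is a description of letters only.

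The surroundings of the genes, 50 kb on each side of the window, carried islands around marked members and few around unmarked ones. Their median coverage was 41.4% for the 19 tested members, against 38.3% for all tested genes. For the 9 members with no island it was 0, with SYCP3 the highest at 10.4%. DAZL was the exception among the unmarked: 0.0854% of its window was covered, in 1 of 16 libraries, while its surroundings were covered over 57.0%, and over 85.3% on the side of higher coordinates. TDRD6 had 1.03% in the window and 23.3% around it. TDRD12 was the reverse, with 13.2% in the window and none around it. The windows of PIWIL1, TDRD9, SYCP2, NLRP5, NLRP7, TDRD12 and MAEL also overlapped a neighbouring gene, whereas those of FIGLA, SYCP1, TEX15, BOLL, PIWIL3, TDRD5, NOBOX, ZP2 and ZP4 overlapped none.

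The effect of the EZH2 inhibitor was taken first over all 8 libraries that held it, EPZ and Combo, against the 8 that did not, P38i and Control. Coverage of 8 of the 19 tested members was lower and of none higher (limma, adjusted p under 0.05), beside 15.6% of all 4105 tested genes lower and 0.877% higher. The 8 were FIGLA in the oocyte group, SYCP1, SYCP2 and TEX15 in the meiotic group, and TDRD9, TDRD5, BOLL and PIWIL3 in the piRNA group. The median difference was -6.85 percentage points over the tested members and -4.84 over all tested genes, and 14 of 19 members were lower in direction, against 78.1% of all tested genes. Over all genes, 642 were lower and 36 higher. With covered length per library as a covariate the median over all genes was -1.21 points, all genes divided into 260 lower and 127 higher, and the members into 2 lower and 2 higher. Covered length was measured after treatment and may itself be altered by it. This fit therefore compares coverage relative to the total of each library. Lists were also trimmed to equal length, keeping the widest islands of each library up to the smallest covered length. This drops narrow islands first, and more of them from libraries with more covered length. Genes under narrow islands can therefore lose coverage by the rule itself. With these lists it was 96 lower and 72 higher for all genes and 2 and 1 for the members.

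FIGLA, a basic helix-loop-helix factor that switches on the egg-coat genes (chromosome 2, 70777310 to 70790643, minus strand), changed most. It was covered over 10.9, 19.6, 32.4 and 10.9% in EPZ, 59.6, 80.4, 79.3 and 53.1% in P38i, 24.7, 30.5, 29.4 and 12.7% in Combo and 76.0, 40.3, 41.1 and 56.7% in Control. All 8 libraries with the EZH2 inhibitor lay below all 8 without it. Such a separation downward was seen in 1.56% of all tested genes (upward in 0.0244%) and in no other tested member. The means were 21.4% ± 9.09 and 60.8% ± 16.2 (SD, n = 8 each), a difference of -39.4 points (SE 6.12, limma adjusted p = 0.00194). With covered length as a covariate the difference was -35.5 points (adjusted p = 0.00971), and with lists of equal length -22.0 points (adjusted p = 0.0562).

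Along FIGLA mean coverage was lower in EPZ and Combo than in P38i and Control, around the start and in much of the gene body. The bins along the gene were not tested. The 5 kb around the start were covered over 19.3% ± 24.8 in EPZ, 55.0% ± 16.1 in P38i, 20.3% ± 9.39 in Combo and 42.6% ± 20.4 in Control (SD, n = 4 each), which was not called in a fit of start windows (-29.0 points, limma adjusted p = 0.134). The bin from 2 to 1 kb before the start was at least 50% covered in 1 of 8 libraries with the EZH2 inhibitor and 5 of 8 without it. Between 5 and 13 kb downstream of the start, 0 of 8 libraries with the EZH2 inhibitor had any 1 kb bin at least 50% covered, while up to 7 of 8 others did. Between 2 and 4 kb, 5 of 8 libraries with the inhibitor and 8 of 8 without it were covered. The kilobase just after the start had no island in any group, and the bin from 14 to 15 kb was covered in 7 of 8 and 8 of 8. The widest island over the gene had a median width of 5 kb with the inhibitor and 9.8 kb without it. The 50 kb on each side were covered over 57.0% in EPZ and Combo and 73.5% in P38i and Control.

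**Figure D3:**
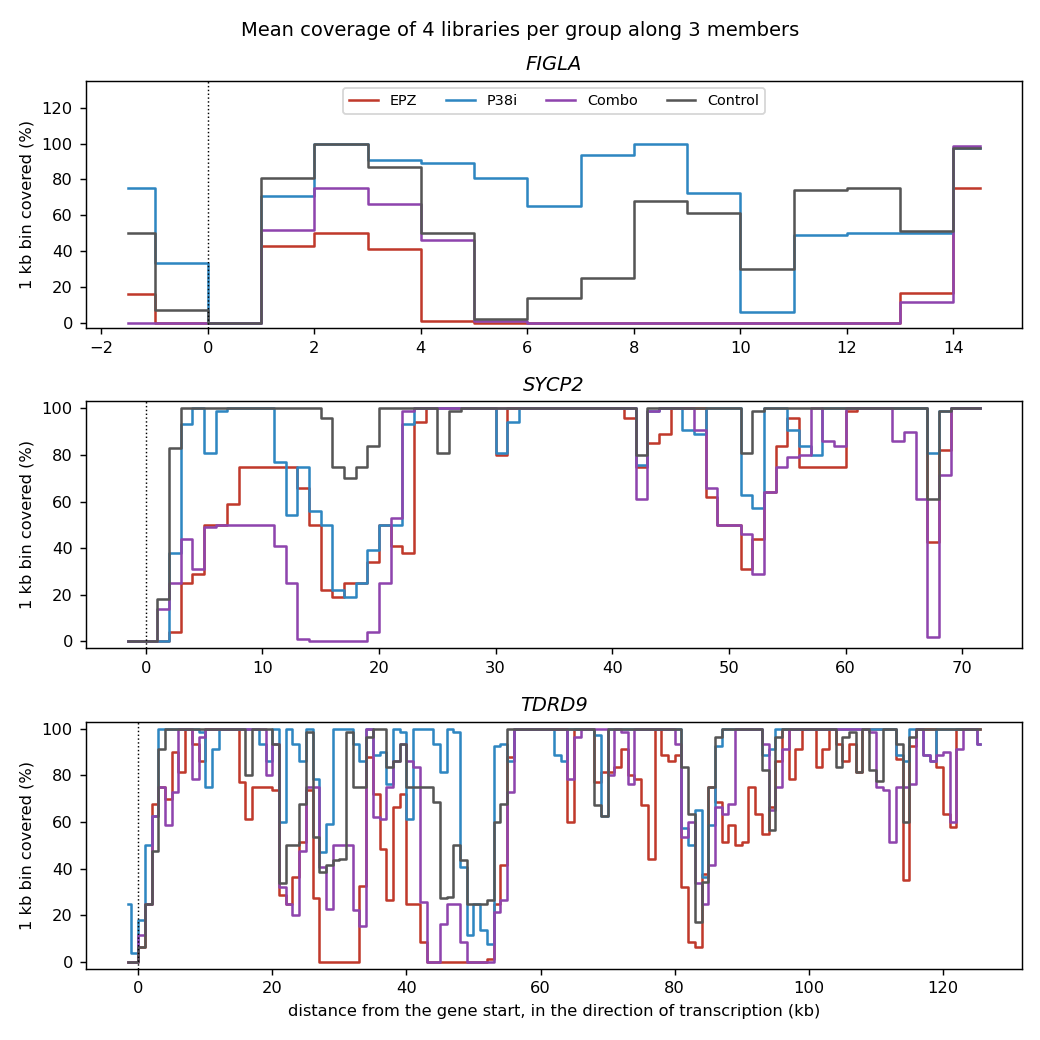
Mean percent of each 1 kb bin covered in the 4 libraries of a group (vertical), against distance from the gene start in the direction of transcription (horizontal, kb), for FIGLA, SYCP2 and TDRD9. Lines stand for EPZ, P38i, Combo and Control. In FIGLA the EPZ and Combo lines lie near 0 from 5 to 13 kb, and in SYCP2 the first kilobase is uncovered in every group.

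Among the synaptonemal complex genes, SYCP1 and SYCP2 were lower and SYCE1 was not called. SYCP1 (chromosome 1, 114854088 to 114995370) was covered over 54.1, 56.8, 58.3 and 82.6% in EPZ, 91.5, 87.6, 90.6 and 75.1% in P38i, 59.2, 79.4, 81.7 and 72.9% in Combo and 89.9, 88.4, 90.6 and 79.4% in Control. EPZ replicate 4 lay within the range of P38i and Control and P38i replicate 4 within that of Combo, so the sets overlapped. The difference was -18.5 points (68.1% ± 12.2 against 86.6% ± 6.05, SE 4.62, adjusted p = 0.0157, limma). The call ended with covered length as a covariate (-12.03 points, adjusted p = 0.0733).

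SYCP2 (chromosome 20, 59863571 to 59933637, minus strand) was covered over 58.5, 62.8, 75.6 and 87.8% in EPZ, 89.96, 75.3, 86.5 and 76.6% in P38i, 55.3, 64.6, 78.5 and 67.3% in Combo and 91.6, 92.4, 93.7 and 87.8% in Control. Every Combo library was below the lowest Control library, and EPZ replicate 4 equalled the lowest Control library. The difference with the EZH2 inhibitor was -17.9 points (68.8% ± 11.0 against 86.7% ± 7.05, SE 4.41, limma adjusted p = 0.0148). SYCP2 was not called with covered length as a covariate (-11.9 points, adjusted p = 0.0671) or with lists of equal length (-15.9 points, adjusted p = 0.0597). Between 15 and 16 kb from the start, 0 of 8 libraries with the inhibitor and 6 of 8 without it had a covered bin, and from 23 to 24 kb the bin was covered in 8 of 8 and 8 of 8.

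SYCE1 (chromosome 10, 133553899 to 133568291) was not called: 72.2, 66.0, 82.5 and 68.1% in EPZ, 70.1, 68.1, 82.5 and 71.2% in P38i, 68.1, 70.1, 72.2 and 85.6% in Combo and 72.2, 59.8, 69.1 and 69.1% in Control. The groups overlapped in every pair, and the difference was 2.84 points (SE 3.61, limma adjusted p = 0.623).

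TEX15, needed in mice for meiotic recombination and for piRNA-directed silencing, was covered over 2.78, 4.16, 9.02 and 34.7% in EPZ, 34.7, 23.8, 43.9 and 18.6% in P38i, 23.1, 5.55, 8.33 and 15.0% in Combo and 50.4, 54.1, 47.6 and 22.2% in Control. Low values prevailed with the inhibitor, with EPZ replicate 4 and Combo replicate 1 inside the range of the other groups. The difference was -24.1 points (12.8% ± 11.0 against 36.9% ± 13.98, SE 5.94, limma adjusted p = 0.0148). TEX15 lost its call with the covariate (-15.3 points, adjusted p = 0.0702) and with lists of equal length (-10.4 points, adjusted p = 0.128). STRA8, the retinoic acid-induced gatekeeper of meiotic entry, ranged over 12.5 to 44.6% and was not called (-6.85 points, adjusted p = 0.238).

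In the piRNA group TDRD9 (chromosome 14, 103928456 to 104052667) was covered over 61.0, 59.7, 68.4 and 67.3% in EPZ, 92.8, 86.5, 93.8 and 78.5% in P38i, 66.2, 68.4, 80.2 and 75.4% in Combo and 87.4, 87.6, 79.8 and 72.7% in Control. The highest EPZ library was below the lowest Control library, and Combo overlapped P38i and Control. The difference was -16.6 points (68.3% ± 6.79 against 84.9% ± 7.30, SE 3.32, limma adjusted p = 0.00563). TDRD9 kept its call with covered length as a covariate (-10.8 points, adjusted p = 0.00398) and with lists of equal length (-17.0 points, adjusted p = 0.00714).

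TDRD5, a tudor-domain protein of germ granules (chromosome 1, 179591613 to 179691272), was covered over 74.9, 76.6, 89.1 and 89.8% in EPZ, 96.3, 86.0, 96.3 and 89.8% in P38i, 72.4, 59.1, 84.1 and 79.7% in Combo and 90.4, 93.8, 91.9 and 86.0% in Control. The 4 Combo libraries lay below every P38i and Control library, whereas EPZ overlapped them. The difference was -13.1 points (78.2% ± 10.0 against 91.3% ± 4.08, SE 3.62, limma adjusted p = 0.0252). It was not called with the covariate (-8.37 points, adjusted p = 0.123), with lists of equal length (-12.1 points, adjusted p = 0.0560) or in 5 of 16 fits that each left out 1 library.

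BOLL, an RNA-binding protein of the DAZ family (chromosome 2, 197726890 to 197786206), was covered over 19.3, 23.8, 24.1 and 24.4% in EPZ, 33.4, 38.4, 47.7 and 30.3% in P38i, 20.999, 19.4, 23.5 and 29.4% in Combo and 24.3, 28.5, 30.0 and 26.6% in Control. The P38i libraries were the 4 highest of the 16, and EPZ, Combo and Control overlapped. The difference was -9.29 points (23.1% ± 3.28 against 32.4% ± 7.54, SE 2.82, limma adjusted p = 0.0375). The BOLL call was lost in 10 of 16 fits that each left out 1 library, with the covariate (-7.23 points, adjusted p = 0.118) and with lists of equal length (-1.61 points, adjusted p = 0.795). It was also lost with replicate number as a block and with islands of at least 2 kb (adjusted p = 0.0507 and 0.0785).

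PIWIL3, a PIWI protein gene (chromosome 22, 24719034 to 24774720), was covered over 18.2, 37.0, 28.8 and 29.4% in EPZ, 33.4, 29.0, 41.0 and 33.7% in P38i, 11.6, 4.07, 26.4 and 26.0% in Combo and 39.7, 50.2, 45.9 and 23.7% in Control. Every Combo library was below every P38i library, and the lowest Control library lay within the range of Combo. The difference was -14.4 points (22.7% ± 10.7 against 37.1% ± 8.79, SE 4.60, limma adjusted p = 0.0459). The PIWIL3 call was lost in 12 of 16 fits that each left out 1 library, with the covariate (-9.29 points, adjusted p = 0.214) and with lists of equal length (-9.09 points, adjusted p = 0.350). Adjusted p was 0.0632 with replicate number as a block, 0.0613 with no filter on coverage, 0.0517 on the arcsine scale and 0.0580 with islands of at least 2 kb.

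**Figure D4:**
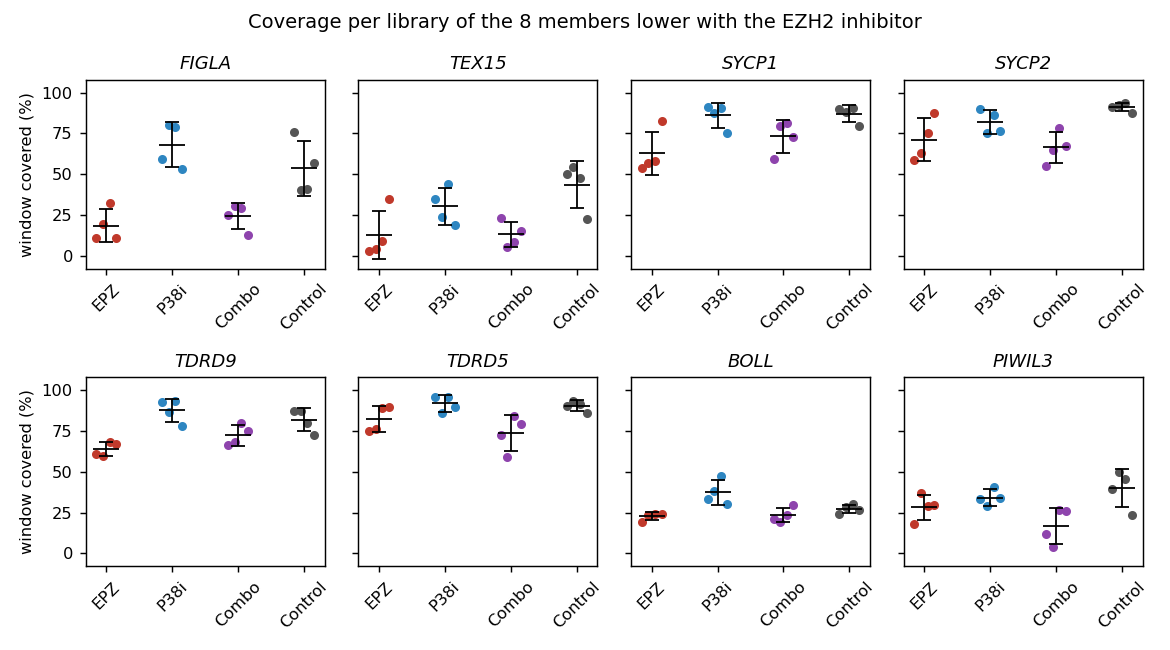
Percent of the gene window covered in each library (points) for the 8 genes lower with the EZH2 inhibitor, by group, with the mean and SD of 4 libraries (bars). FIGLA separates the EPZ and Combo points (10.9 to 32.4%) from the P38i and Control points (40.3 to 80.4%), and in the other 7 genes these 2 sets overlap.

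PIWIL1 (chromosome 12, 130337887 to 130426260) was not called: 43.3, 49.3, 59.5 and 60.0% in EPZ, 75.8, 55.9, 68.8 and 38.98% in P38i, 61.6, 59.5, 43.3 and 68.8% in Combo and 70.9, 51.8, 63.0 and 43.1% in Control. Replicates of a group differed by more than the groups did, with a difference of -2.87 points (SE 5.92, limma adjusted p = 0.776). The other tested piRNA genes were little covered: PIWIL4 ranged over 0 to 19.5%, TDRD12 over 3.48 to 21.4% and MAEL over 3.71 to 20.8%. None was called, at -5.61, -6.31 and -4.48 points (limma adjusted p = 0.191, 0.0664 and 0.201).

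In the oocyte group FIGLA alone was called. NOBOX (chromosome 7, 144396894 to 144410227, minus strand) was covered over 65.1, 73.8, 91.2 and 65.1% in EPZ, 77.1, 70.5, 100 and 92.4% in P38i, 95.6, 81.4, 100 and 85.8% in Combo and 93.5, 60.7, 55.3 and 77.1% in Control. Its highest values were in Combo and P38i libraries, with overlap in every pair, and the EZH2 inhibitor difference was 3.94 points (SE 6.24, limma adjusted p = 0.699).

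NLRP5 (chromosome 19, 55986775 to 56061810) was covered over 82.5, 89.3, 90.5 and 94.0% in EPZ, 95.3, 90.5, 96.3 and 79.0% in P38i, 89.6, 90.5, 97.3 and 93.8% in Combo and 92.6, 86.5, 77.0 and 74.4% in Control. All groups overlapped at a high level (4.49 points, SE 3.18, limma adjusted p = 0.351). With covered length as a covariate, however, NLRP5 was called higher relative to the library total, at 10.2 points (limma adjusted p = 0.00513). NLRP7, a maternal-effect gene linked to recurrent hydatidiform mole, ranged over 28.05 to 75.4%. Its difference was 7.30 points in the fit with no covariate (limma adjusted p = 0.543). It was 20.7 points with the covariate, relative to the library total (adjusted p = 0.0219), and 27.6 points with lists of equal length (adjusted p = 0.00910). Trimming drops more islands from libraries with more covered length, and whether that rule accounts for the last value was not tested.

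Of the egg-coat genes, ZP2 and ZP4 were tested. ZP2 (chromosome 16, 21197450 to 21214510) was covered over 38.3, 35.4, 51.0 and 56.4% in EPZ, 78.9, 84.6, 69.9 and 67.1% in P38i, 59.2, 57.3, 52.8 and 75.5% in Combo and 75.5, 47.2, 19.9 and 59.2% in Control. The P38i libraries lay between 67.1 and 84.6% and the Control libraries spread from 19.9 to 75.5%, and the EZH2 inhibitor difference was -9.54 points (SE 6.81, limma adjusted p = 0.353). ZP4 ranged from no island to 88.9% (18.8 points, SE 11.8, adjusted p = 0.289).

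**Figure D5:**
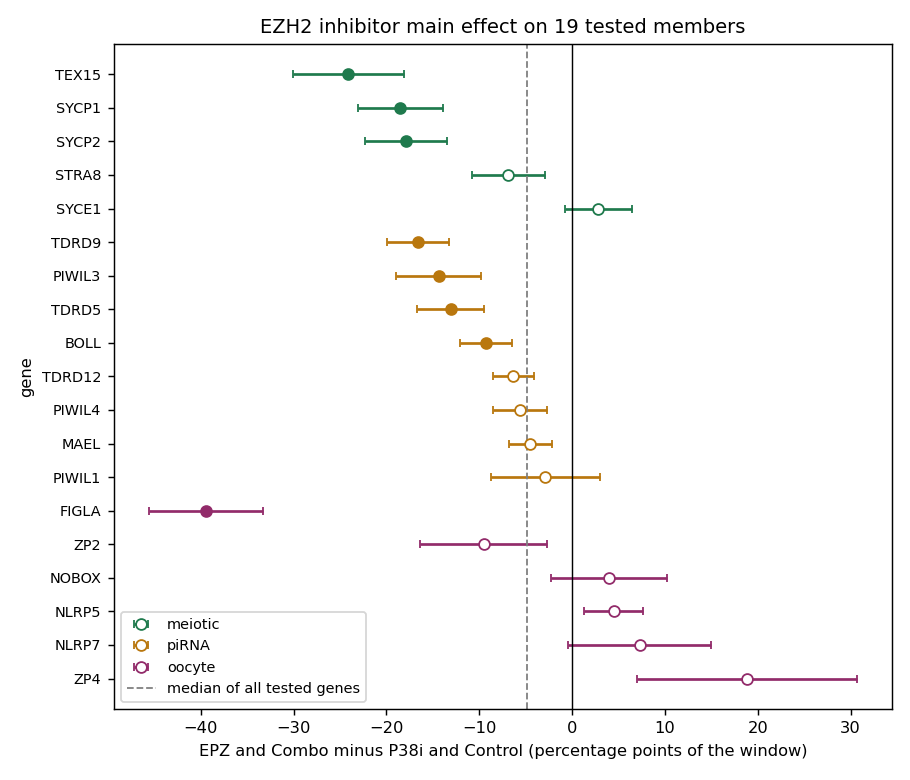
Difference in coverage, EPZ and Combo minus P38i and Control (horizontal, percentage points of the window), with its standard error, for the 19 tested genes by role. Filled points passed an adjusted p of 0.05 in limma, and the dashed line is the median of all tested genes (-4.84). The 8 filled points lie between -39.4 and -9.29, and 5 open points lie above 0.

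Each treatment was then set against Control alone. In EPZ, 1 of 19 members was lower and none higher, beside 3.05% of all tested genes lower and 0.122% higher. It was FIGLA, at 18.4% ± 10.2 in EPZ and 53.5% ± 16.8 in Control (-35.1 points, SE 8.65, limma adjusted p = 0.0423). Close to the threshold stood TDRD9 at -17.8 points (adjusted p = 0.0531), SYCP1 at -24.1 and TEX15 at -30.9 (both adjusted p = 0.0566). The groups did not overlap in 2 members, FIGLA and TDRD9, both lower, beside 7.84% of all tested genes lower and 0.56% higher. The call of FIGLA was lost in 12 of the 16 fits that each left out 1 library, with adjusted p up to 0.119, and the 4 that kept it left out EPZ replicate 3, P38i replicate 3, P38i replicate 4 or Control replicate 4. With replicate number as a block its adjusted p was 0.0660, and with covered length as a covariate 0.0893.

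In Combo against Control no member was called, beside 1.44% of all tested genes lower and 0.244% higher, and 8 members had an unadjusted p under 0.05 in limma, against 759 of all tested genes (18.5%). The nearest was SYCP2, at 66.4% ± 9.54 in Combo and 91.4% ± 2.51 in Control (-24.9 points, SE 6.23, adjusted p = 0.0540). TEX15 followed at -30.6 points (adjusted p = 0.0730), PIWIL3 at -22.8 (adjusted p = 0.0822) and FIGLA at -29.2 (adjusted p = 0.0904). With covered length as a covariate 4 members were lower, namely SYCP2, TEX15, PIWIL3 and TDRD5, and NLRP5 and NLRP7 were higher. In that fit 224 of all 4105 tested genes were lower and 133 higher. Without Control replicate 4 the count was 3, all lower, beside 239 of all 4105 tested genes lower and 11 higher. All Combo libraries were below all Control libraries in 4 members, FIGLA, SYCP2, TDRD5 and MAEL, and above them in none, beside 6.46% and 1.61% of all tested genes.

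In P38i against Control no member was called, beside 0% of all tested genes lower and 0.292% higher. Unadjusted, 3 members had p under 0.05 in limma, against 416 of all tested genes (10.1%). ZP2 stood at 75.1% ± 8.08 in P38i and 50.4% ± 23.4 in Control (24.7 points, adjusted p = 0.420). BOLL stood at 37.5% ± 7.61 in P38i and 27.3% ± 2.48 in Control (10.1 points, adjusted p = 0.421). The groups did not overlap in 1 member, BOLL, where P38i was higher, beside 3.24% of all tested genes higher and 0.171% lower. MAEL stood at 10.001% ± 3.85 in P38i and 17.2% ± 5.03 in Control (-7.17 points, adjusted p = 0.491).

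The pairs that share an inhibitor were set side by side as well. In Combo against P38i, which asks what EPZ adds to P38i, FIGLA was the 1 member called, at 24.3% ± 8.13 in Combo and 68.1% ± 13.8 in P38i (-43.8 points, SE 8.65, limma adjusted p = 0.0250), beside 1.85% of all tested genes lower and 0.0731% higher. Combo lay wholly below P38i in 5 members, FIGLA, TDRD5, BOLL, PIWIL3 and TDRD12, and wholly above it in none, beside 10% and 0.828% of all tested genes. The call of FIGLA was lost without P38i replicate 2 or 3 or Combo replicate 1, 2 or 4, with adjusted p up to 0.0798. TDRD5 (-18.3 points), BOLL (-14.1) and TDRD9 (-15.4) did not pass, with adjusted p of 0.0845, 0.0873 and 0.0990. In Combo against EPZ no member was called, and neither was any of the 4105 genes (0%), with 2 members and 224 genes at an unadjusted p under 0.05. Combo lay wholly above EPZ in 1 member, PIWIL4, and wholly below it in none, beside 2.8% and 0.171% of all tested genes. The smallest p was that of STRA8, at 34.8% ± 8.45 in Combo and 20.3% ± 6.99 in EPZ (14.48 points, adjusted p = 0.790).

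Over all 8 libraries with P38i against the 8 without it, no member was called, beside 0.122% of all tested genes higher and 0% lower, and 4 members had an unadjusted p under 0.05, against 544 of all tested genes (13.3%). ZP2 came nearest (20.3 points, SE 6.81, limma adjusted p = 0.225), then STRA8 (10.9 points, adjusted p = 0.252) and NOBOX (15.1 points, adjusted p = 0.327). For the interaction, which asks whether the inhibitors together differ from the sum of each alone, no member was called, beside 0.0487% of all tested genes, and 0 members had an unadjusted p under 0.05, against 141 of all tested genes.

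Exact permutation tests of 4 libraries against 4 (2-sided, smallest possible p = 0.0286) were also run on the 8 called genes. They use the libraries on which these genes were called and are no further evidence. None of the 24 tests passed an adjusted p of 0.05. Those at the smallest possible p, among them FIGLA in EPZ against Control, had an adjusted p of 0.0762 in this permutation test. With so few libraries a test can pass only if many reach that smallest p together, so the missing passes decide nothing.

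Other germline genes were read from lists of 35 meiotic, 21 piRNA and 30 oocyte genes outside the 36. With the EZH2 inhibitor, coverage was lower in 6 of 14 tested meiotic genes, 5 of 6 piRNA genes and 4 of 19 oocyte genes, and in none higher, beside the 15.6% of all tested genes lower. The median differences were -8.997, -22.8 and -1.03 points, against -4.84 over all tested genes. In 24 cancer-testis genes, 1 of 11 tested was lower, CTCFL, a germline relative of the insulator protein CTCF (-13.99 points, adjusted p = 0.0261, limma).

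Among the meiotic ones, TERB2, which ties telomeres to the nuclear envelope, was covered over 4.08% ± 5.96 in EPZ and Combo and 30.0% ± 13.4 in P38i and Control (-26.0 points, limma adjusted p = 0.00448). The crossover helicase HFM1, the break-formation factor ANKRD31, TEX11 and the central-element gene C14orf39 were also lower, by values between -18.2 and -13.6 points. Of the piRNA genes, ASZ1, a germ-granule protein, was covered over 46.6% ± 9.08 in EPZ and Combo and 78.6% ± 8.01 in P38i and Control (-32.0 points, limma adjusted p = 0.00135). The tudor-domain gene TDRD15 had 43.4% ± 14.2 in EPZ and Combo and 79.0% ± 12.9 in P38i and Control (-35.6 points, adjusted p = 0.00474), and RNF17, DDX25 and GTSF1 were lower by values between -24.0 and -17.6 points. Of the oocyte genes, FBXW12, ASTL, whose protease cleaves ZP2 after fertilisation, NLRP14 and the oocyte kinase WEE2 were lower, by values between -24.2 and -11.8 points.

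In EPZ against Control alone, ASZ1 (-34.4 points, adjusted p = 0.0202), TERB2 (-31.0 points, adjusted p = 0.0317) and FBXW12 (-29.4 points, adjusted p = 0.0339) were called in limma. ASZ1 was called again in Combo against Control, with TERB2 and TDRD15, and in Combo against P38i, with ASTL. The comparisons with Control share their Control libraries.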

How the data were processed

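Per the labels, H3K27me3 ChIPmentation was done on MDA-MB-231 cells, and the authors deposited 1 list of islands per library (3 columns: chromosome, start, end; no other unit, score or count) on build hg38. Per the submitters' processing notes, the tools were Bowtie2 2.3.4.1, SAMtools 1.2, bedtools 2.28.0, FastQC, Picard, cutadapt, Trim Galore and, for islands, SICER. The order of steps and SICER's parameters are not given in the sources used. Within these lists, bounds fell on windows of 200 bp, so coverage moves in steps of that size, and weak signal that was not called counts as 0.

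From these lists the percent of each gene window covered was computed for 19974 genes, and for the 36 members it equalled that of bedtools 2.31.1 (largest difference 0). Genes with a mean of 5 to 95% over the 16 libraries (4105) entered 1 limma 3.58.1 fit (R 4.3.3, trend and robust options) with 8 contrasts, Benjamini-Hochberg adjusted within each over all genes, threshold 0.05. The fit was also run on simulated data with large known differences and independent noise. That is a check of the code and no evidence for the calls made here. Coverage and exact permutation tests were computed in Python 3.11.15 with pandas 2.3.3, numpy 2.4.6 and scipy 1.17.1, and figures drawn with matplotlib 3.10.9. Depth is unknown, so no counting interval is given.

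Members given in every library were those called in any contrast and the 3 most covered tested ones of each role; of the other germline genes, at most 5 per list and contrast by smallest p. The members and lists were chosen with earlier results of these data known. Alternatives were other flanks, filters and scales, gene starts, covered length as a covariate and lists cut to equal length by keeping the widest islands. Others were islands of at least 2 kb, a replicate block, 2-group fits and each library left out.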

Additional observations from a re-analysis of the deposited data

Results flagged for a closer look

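Of 52 groups of 4 libraries examined among the named members, 2 held a library far from the other 3, and chance alone gives about 1 in 20. BOLL in EPZ replicate 1 was the lowest of its group at 19.3%, against 23.8 to 24.4% in the other 3 EPZ libraries. EPZ replicate 1 was also the library with the narrowest islands (median 3.4 kb) and the smallest covered length (474 Mb). Without it the main effect of the EZH2 inhibitor on BOLL had a limma adjusted p of 0.0769.

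SYCP1 in EPZ replicate 4 was the highest of its group at 82.6%, against 54.1 to 58.3% in the other 3. EPZ replicate 4 had the largest covered length of the EPZ group (587 Mb). Whether covered length accounts for either value was not tested.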

How the results depend on the processing

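Counts of called members depended on the setting. For EPZ against Control, the 1 call became 2 with flanks of 1 kb or 5 kb, 4 with a filter of 10 to 90%, 2 with covered length as a covariate, 2 without trend and robust options, and 0 with the replicate block, the gene start window, lists of equal length, islands of at least 2 kb or a fit of the 2 groups. FIGLA was not among the calls with the covariate (TDRD9 lower, NLRP5 higher), and with no flank (TDRD9) or no filter (SPO11) the 1 call was another gene. Leaving out each library gave 0 to 5, with 5 without Control replicate 4. Calls over all tested genes moved as well, from 125 lower and 5 higher in the main fit. They were 69 and 35 with the covariate, 10 and 4 with equal lengths, and 410 and 7 without Control replicate 4. For Combo against Control, 0 became 1 with the 10 to 90% filter or the arcsine scale, 6 with the covariate and 4 with equal lengths. With a library left out it was 0 to 3. Over all tested genes, 59 lower and 10 higher became 224 and 133 with the covariate and 61 and 40 with equal lengths. For Combo against P38i, 1 became 2 with the covariate and 0 with the start window, equal lengths or islands of at least 2 kb. With a library left out it was 0 to 3, with 3 without P38i replicate 4. Over all tested genes, 76 lower and 3 higher became 43 and 25 with the covariate and 226 and 6 without P38i replicate 4. For the EZH2 inhibitor main effect, 8 became 4 with the covariate, 0 with the start window and 3 with equal lengths. With a library left out it was 5 to 9, with 5 without EPZ replicate 1, P38i replicate 3 or Control replicate 2. The start window gave 41 lower and 0 higher of all 2581 genes tested there, against 642 and 36 of 4105 in the main fit. The other 4 contrasts kept a count of 0 in every setting run. Members at least 50% covered averaged 11.1 per library and 6.19 at a threshold of 75%. Without EPZ replicate 1 and Control replicate 4, the narrowest islands, chosen after seeing the data, the counts were 2 (EPZ, TEX15 and PIWIL4 but not FIGLA), 3 (Combo against Control) and 8 (main effect). Over all tested genes these contrasts then had 157, 218 and 679 lower and 4, 12 and 31 higher. The cause of these moves was not tested.

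None of the 8 called members changed direction in any setting run. FIGLA, TDRD9, SYCP1, SYCP2 and TEX15 kept the main-effect call without any 1 library, but SYCP1, SYCP2 and TEX15 lost it with the covariate and FIGLA, SYCP2 and TEX15 with equal lengths; BOLL lost it in 10, PIWIL3 in 12 and TDRD5 in 5 of 16 such fits. With replicate number as a block, the main-effect count was 6, with BOLL at limma adjusted p = 0.0507 and PIWIL3 at 0.0632. Over all tested genes, 554 were lower and 33 higher in that fit. Correlations of deviations were -0.151 to 0.178 over 24 same-numbered pairs and -0.204 to 0.163 over 72 others, so the numbers were not taken to pair libraries. Read depth is unknown, which limits every value here.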
